A study of Mus musculus with 7 samples.

Results

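The miR-29 family was followed in CD4+ T cells of 2 mouse models of heart disease. Its members were chosen by name. They are the guide strands mmu-miR-29c-3p, mmu-miR-29a-3p and mmu-miR-29b-3p and the passenger strands mmu-miR-29a-5p and mmu-miR-29c-5p, which make 5 of the 1881 miRNA names on the array; the prefix mmu, for mouse, is left out from here on. The cells were selected on CD4 with magnetic beads from lymph nodes draining the affected tissue. EAM, a myocarditis model, gave 4 arrays of cells taken on day 6 after induction, and LAD, a myocardial infarction model, gave 3 arrays of cells taken on day 3. These days are those of the sample labels, and the design text of the series assigns them the other way round. No untreated mice were analysed here. The models also differed in day and in the column of the slide that held their arrays, so that these cannot be told apart. Strain, age and the number of animals behind each array were not given in the sources used here, so p values measure only the spread between these arrays, which may be technical.

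MicroRNAs (miRNAs) are short RNAs that guide Argonaute proteins to messenger RNAs and lower their output, with the seed, bases 2 to 8 of the miRNA, as the main determinant of pairing. Each hairpin precursor gives a 5p and a 3p arm. In the miR-29 family the 3p arm is the guide strand and the 5p arm the passenger strand, which is mostly degraded. In helper T cells miR-29 is known for restraining the interferon gamma programme, through the interferon gamma messenger RNA itself and through the transcription factors T-bet and Eomes. Outside the immune system it is known for repressing collagens and DNA methyltransferases.

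All 5 members were found in the RefSeq miRNA table (GRCm38.p6). Their mature sequences are shown because they decide what the members share and what the probes can separate. Capitals mark the seed.
miR-29a-3p: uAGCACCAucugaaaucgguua
miR-29b-3p: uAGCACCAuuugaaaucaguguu
miR-29c-3p: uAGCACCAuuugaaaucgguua
miR-29a-5p: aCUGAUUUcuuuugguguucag
miR-29c-5p: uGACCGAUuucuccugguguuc
The 3 guide strands carry 1 seed, AGCACCA, and no other of the 1608 array names found in the RefSeq table carries it. The seeds of miR-29a-5p and miR-29c-5p were shared with no other of these names. Counted from 1 at the 5′ end, miR-29a-3p and miR-29c-3p differ by the single substitution C10U. Over 22 bases miR-29c-3p and miR-29b-3p differ by G18A, U21G and A22U, all outside the seed.

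The family comes from 2 gene pairs. The Mir29a and Mir29b-1 hairpins lie 275 bases apart on the minus strand of chromosome 6, outside any other RefSeq gene. The Mir29b-2 and Mir29c hairpins lie 426 bases apart on the plus strand of chromosome 1, within the long non-coding RNA gene A330023F24Rik. In GRCm38.p6, miR-29a-3p is at chr6:31062673-31062694 and miR-29a-5p at chr6:31062711-31062732. On chromosome 1, miR-29c-3p is at chr1:195037600-195037621 and miR-29c-5p at chr1:195037562-195037583. miR-29b-3p comes from both pairs, at chr6:31063025-31063047 and chr1:195037091-195037113, so its signal cannot be assigned to either. The precursors of miR-29a and miR-29c are shown with both arms in capitals, the 5p arm first.
Mir29a: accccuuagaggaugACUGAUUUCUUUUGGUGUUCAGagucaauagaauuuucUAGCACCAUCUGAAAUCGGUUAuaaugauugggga
Mir29c: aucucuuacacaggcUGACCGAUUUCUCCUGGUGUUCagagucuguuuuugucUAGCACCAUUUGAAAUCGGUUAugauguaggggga

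The array holds 150 spots for the 5 members. Each guide strand has 2 probes of 15 spots each. The 22-base miR-29c-3p probe pairs with the whole miRNA, the 19- and 20-base miR-29a-3p probes with all but its first bases at the 5′ end. The longer miR-29a-3p probe and the shorter miR-29c-3p probe are shown, with the base opposite position 10, where these guide strands differ, in capitals.
miR-29a-3p probe: taaccgatttcaGatggtgc
miR-29c-3p probe: taaccgatttcaAatggtgct
Each miR-29a-3p probe has 1 mismatched base against miR-29c-3p and each miR-29c-3p probe 1 against miR-29a-3p. The miR-29b-3p probes have 4 mismatched bases or overhangs against miR-29c-3p and 5 against miR-29a-3p. How much of each signal came from the other guide strands was not tested.

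Detection on every array was reached by 251 names, and 553 were detected somewhere, with 445 to 471 on the EAM arrays and 311 to 380 on the LAD arrays. The 75th percentile of the background-subtracted signal, over the 299 probes well above background on all arrays, was 835 to 1110 intensity units on the EAM arrays and 126 to 513 on the LAD arrays. The LAD arrays were therefore dimmer as a whole before any member is considered. The part of brightness in the differences given here was not tested beyond the scaling alternatives.

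Before any scaling between arrays, every guide-strand probe was brighter on each of the 4 EAM arrays than on any LAD array. The 20-base miR-29a-3p probe gave a background-subtracted signal of 22970, 23310, 21440 and 30570 intensity units on EAM arrays 1 to 4 and 2941, 1896 and 706.3 on LAD arrays 1 to 3. The 21-base miR-29b-3p probe gave 10130, 10170, 10080 and 14000 in EAM and 1503, 1202 and 414.6 in LAD. The 22-base miR-29c-3p probe gave 2279, 2526, 2259 and 3251 in EAM and 293.3, 227.1 and 75.53 in LAD. EAM array 4 was the highest and LAD array 3 the lowest for all 3, and the groups did not overlap. All spots of these probes were well above background on all 7 arrays and 0 were saturated. Replicate spots of a guide-strand probe varied by 1.28% to 8.73% (coefficient of variation within an array). At the miRNA level, without scaling, miR-29a-3p was 15.6-fold, miR-29c-3p 13.3-fold and miR-29b-3p 11.9-fold higher in EAM. The median difference of the 423 tested miRNAs was 1.17 (log2) in the same values.

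**Figure D1:**
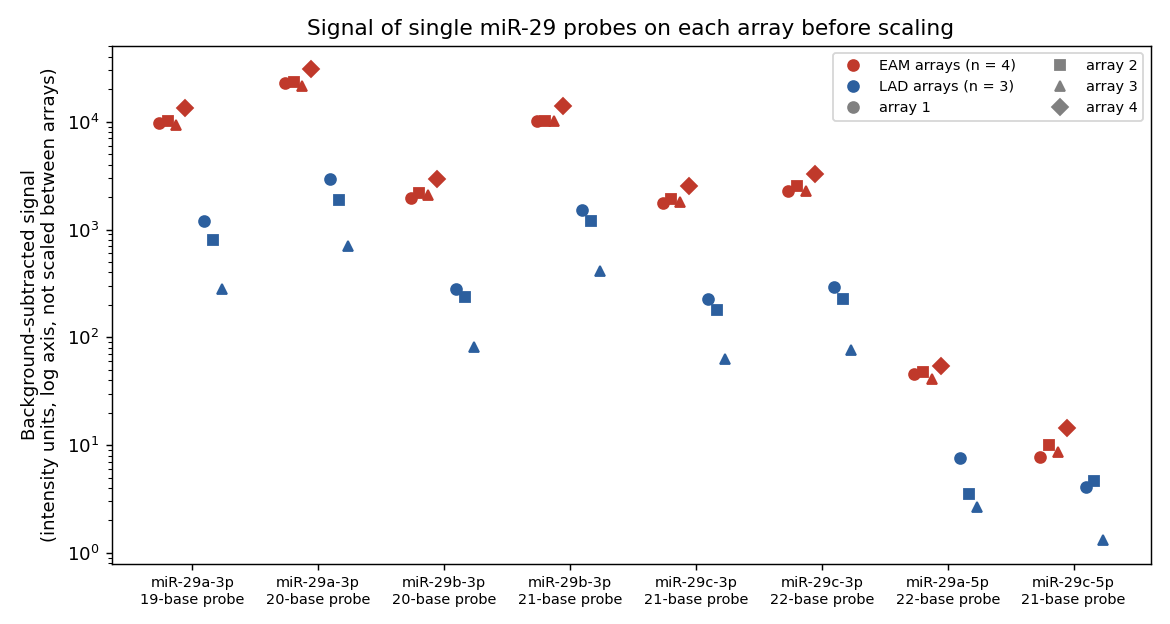
Background-subtracted signal (intensity units, log axis, not scaled between arrays) of the guide-strand probes and of the longest probe of each 5p arm, on 4 EAM arrays (red) and 3 LAD arrays (blue), with 1 symbol per array number. The 20-base miR-29a-3p probe lies between 21440 and 30570 in EAM and between 706.3 and 2941 in LAD, and the guide-strand probes show the same order of LAD arrays.

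After background correction and quantile normalization, which gives all arrays the same distribution of spot signals, all 3 guide strands were higher in EAM than in LAD. Of the 4 members tested, 3 passed (limma, adjusted p under 0.05), each toward EAM, against 36.2% of all 423 tested miRNAs that passed in that direction and 59.8% in either. The EAM minus LAD differences of the guide strands were 1.31 to 1.81 (log2), where the median of all tested miRNAs was 0.31. Values from here on are log2 units of this normalized signal unless stated otherwise.

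miR-29c-3p, the guide strand of the chromosome 1 pair, had a log2 signal of 10.53, 10.50, 10.64 and 10.76 on EAM arrays 1 to 4 and 10.23, 8.11 and 8.04 on LAD arrays 1 to 3. LAD array 1 lay just under the EAM arrays and the other LAD arrays far below them, without overlap. The means were 10.61 ± 0.12 (SD, n = 4) for EAM and 8.79 ± 1.24 (SD, n = 3) for LAD. The difference of 1.81 log2, or 3.52-fold, had a standard error of 0.50, a 95% interval of 0.65 to 2.98 and a limma adjusted p of 0.0215. miR-29a-3p, the guide strand of the chromosome 6 pair, had 13.38, 13.47, 13.32 and 13.49 in EAM and 13.16, 10.77 and 11.90 in LAD. Here LAD array 2 was the lowest, and LAD array 1 again lay close to EAM. Its difference was 2.77-fold, from 13.41 ± 0.08 (SD, n = 4) against 11.95 ± 1.19 (SD, n = 3), with a standard error of 0.48 log2, a 95% interval of 0.36 to 2.58 and a limma adjusted p of 0.0341. miR-29b-3p, made from both pairs, had 11.69, 11.61, 11.80 and 11.85 in EAM and 11.60, 9.49 and 10.18 in LAD. The highest LAD value lay just under the lowest EAM value, so the groups were barely apart. Its difference was 2.48-fold, from 11.74 ± 0.11 (SD, n = 4) against 10.43 ± 1.07 (SD, n = 3), with a standard error of 0.43 log2, a 95% interval of 0.30 to 2.32 and a limma adjusted p of 0.0354. The miR-29b-3p probes were not alike in these values, with a difference of 1.62 log2 by the 20-base probe and 1.01 by the 21-base probe.

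In limma each miRNA has a single variance for both groups, while the guide strands had SDs of 1.07 to 1.24 on the LAD arrays and 0.08 to 0.12 on the EAM arrays. When each miRNA was tested with separate variances and no moderation, 0 of 423 passed (120 at an unadjusted p under 0.05, against 285 in limma), and the adjusted p was 0.226 for miR-29c-3p and 0.250 for the other guide strands. Each guide strand taken alone reached a two-sided exact permutation p of 0.0571, the smallest that the 35 splits of 7 arrays allow. The groups did not overlap, with EAM higher, for the 3 guide strands, for 34% of all tested miRNAs, and in either direction for 56.3%. They did not overlap for miR-29a-5p either, but it was undetected in LAD and entered the test through EAM alone. Without LAD array 2 the difference of miR-29a-3p was 0.88 and that of miR-29b-3p 0.85 (limma adjusted p = 0.0595 for the latter), while 54.8% of all tested miRNAs passed toward EAM. Without LAD array 3, 0 of the 4 members passed, against 15.4% of all tested miRNAs. The same count of 0 was found without EAM array 1, 2, 3 or 4, against 17.5%, 14.9%, 10.9% and 9.69%. Without LAD array 1 the 3 guide strands passed, against 18.9%.

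**Figure D2:**
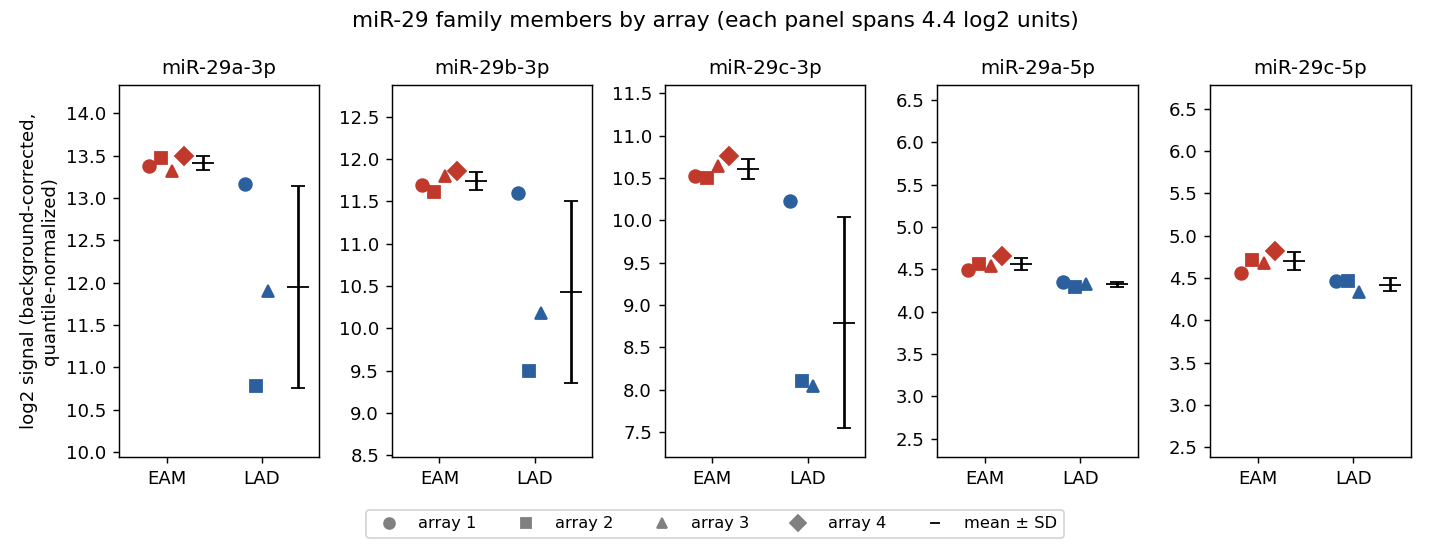
Log2 signal (background-corrected, quantile-normalized) of the 5 members on each array, with 1 symbol per array number and the mean ± SD of each group in black (EAM n = 4, LAD n = 3); each panel spans the same number of log2 units. miR-29c-3p lies between 10.50 and 10.76 on the EAM arrays and at 10.23, 8.11 and 8.04 on the LAD arrays, while the 5p arms lie within a narrow range in both groups.

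Ranked by difference toward EAM among the 423 tested miRNAs, miR-29c-3p was at place 5, miR-29a-3p at 9 and miR-29b-3p at 15. The guide strands thus lay at the EAM end of the distribution in these values. Without LAD array 2, miR-29c-3p stayed within the top 2.84% of tested miRNAs, while miR-29a-3p and miR-29b-3p were at 20.8% and 22.2% from the EAM end. By Agilent's total gene signal, which sets undetected miRNAs to 0.1 units, the guide strands were at 37.1% to 41.8%. No place is given for miR-29a-5p, whose LAD level is only a bound. The median of the guide strands was 1.16 (log2) above that of all tested miRNAs with quantile normalization, 0.45 without LAD array 2, 0.76 by total gene signal, 1.93 with arrays scaled to the 75th percentile of probes above background on all arrays, and 2.57 without scaling. With that percentile the median of all tested miRNAs was -0.07, and without scaling 1.17. The median unscaled signal of the tested miRNAs was 5.72 to 5.98 (log2) on the EAM arrays and 4.66 to 5.42 on the LAD arrays. Undetected miR-29c-5p had 3.76 to 4.45 on the LAD arrays, so a median miRNA had less room to fall than a bright guide strand. The part of this in the 2.57 was not tested.

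**Figure D3:**
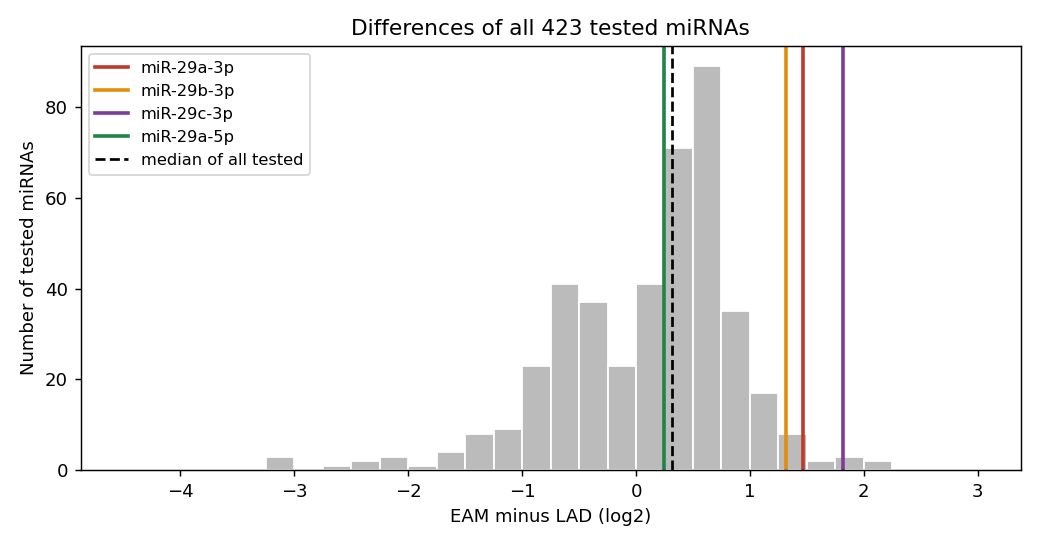
Histogram of the EAM minus LAD difference (log2) of the 423 tested miRNAs (y axis, number of miRNAs), with a coloured line for each tested member and a dashed line at the median of 0.31. The guide strands lie at 1.31 to 1.81 in the right tail; miR-29a-5p, drawn at 0.24, was not detected in LAD.

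In the background-corrected, quantile-normalized values, the difference lay mostly on LAD arrays 2 and 3. On LAD array 1 the mean of the guide strands was 0.26 log2 below the EAM mean, less than the median miRNA, which was 0.37 below. On LAD array 2 the guide strands were 2.46 below on average, while the median miRNA was 0.05 below and the 5th percentile 0.94 below. Among the 423 tested miRNAs, miR-29a-3p, miR-29c-3p and miR-29b-3p were at places 3, 4 and 6 on that array, counted from the most negative deviation. On LAD array 3 the guide strands were 1.88 below on average, against a median of 0.47 below and a 5th percentile of 1.61 below. There miR-29c-3p was at place 4, miR-29b-3p at 28 and miR-29a-3p at 30. By the 75th percentile of probe signal, LAD array 2 (513 units) was brighter than LAD arrays 1 (200.1) and 3 (126). The lowest normalized miR-29a-3p and miR-29b-3p values fell on the brightest LAD array and the lowest miR-29c-3p value on the dimmest.

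How close LAD array 1 lay to EAM depended on the normalization. In the authors' deposited table, miR-29c-3p was 9.18 on LAD array 1 and 10.55 to 10.85 in EAM, and the mean deviation of the guide strands from EAM was -1.14 there, against a median miRNA at -0.31. With arrays scaled to the 75th percentile of probes above background throughout, the mean deviation of the guide strands was -0.80 on LAD array 1, -2.58 on LAD array 2 and -2.07 on LAD array 3. Without scaling they deviated by -2.90 to -3.08 on LAD array 1, -3.17 to -3.68 on LAD array 2 and -4.65 to -5.12 on LAD array 3, the dimmest, against medians of all tested miRNAs of -1.35, -0.51 and -1.62. By the mean of the guide strands, LAD array 1 was the closest of the LAD arrays to EAM in each of these sets of values.

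**Figure D4:**
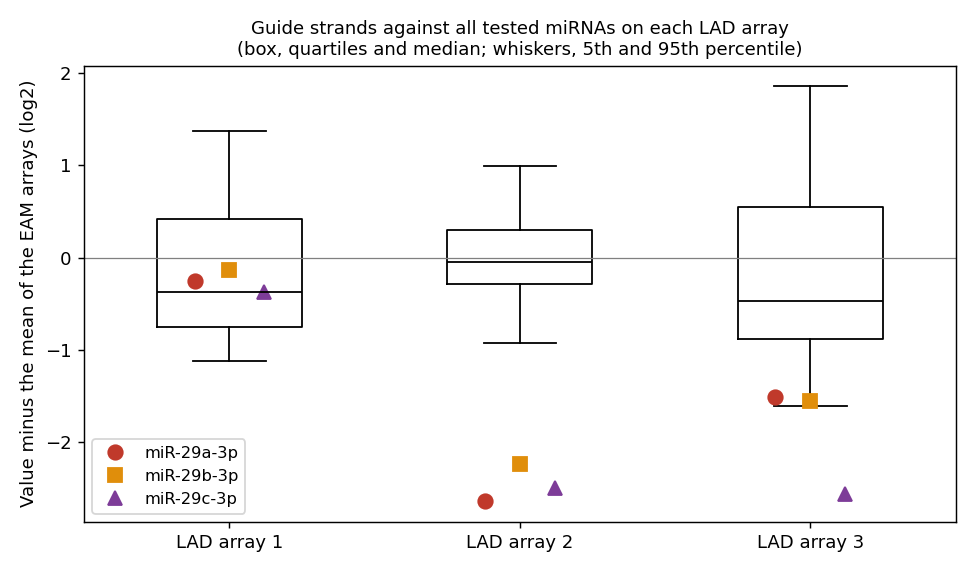
Difference of each LAD array from the mean of the 4 EAM arrays (log2), with boxes for the quartiles and median of all 423 tested miRNAs, whiskers at the 5th and 95th percentile, and symbols for the guide strands. On LAD array 1 the guide strands lie inside the box; on LAD array 2 they lie 2.24 to 2.64 below the EAM mean, under the whisker.

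Whether the guide strands moved by unequal amounts was asked within arrays, for 3 pairs. The log2 signal of miR-29c-3p minus that of miR-29b-3p was -1.16, -1.12, -1.16 and -1.09 in EAM and -1.37, -1.39 and -2.14 in LAD. All LAD values were lower. The difference between the models was 0.50 ± 0.25 (log2, standard error) larger for miR-29c-3p than for miR-29b-3p. The two-sided exact permutation p was 0.0571, the smallest possible, or 0.171 adjusted over the 3 pairs. The value was 0.25 without LAD array 3 and 0.23 when the 75th percentile of probes above background set the scale. It also depended on the probe. The quantile-normalized difference between the models was 1.62 by the 20-base miR-29b-3p probe and 1.01 by the 21-base one. By the miR-29c-3p probes it was 1.83 and 1.80. Without scaling the miR-29b-3p probes gave 3.58 and 3.57 and the miR-29c-3p probes 3.71 and 3.77. For miR-29c-3p minus miR-29a-3p the EAM values were -2.68 to -2.97 and the LAD values -2.93, -2.67 and -3.86, which overlap. That difference was 0.35 ± 0.37 (exact permutation p = 0.514, adjusted p = 0.514), and it turned to -0.11 when the 75th percentile of probes above background set the scale and to -0.007 without LAD array 3. For miR-29b-3p minus miR-29a-3p it was -0.16 ± 0.15 (exact permutation p = 0.400, adjusted p = 0.514). With 7 arrays these values do not show that the guide strands changed alike.

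Both passenger strands were close to background. miR-29a-5p was detected on 4 of 4 EAM arrays and 0 of 3 LAD arrays, and only its longest probe had all spots above background on any array. Its 4 probes end at the same 3′ base and differ in how far they reach toward the 5′ end. The shortest and the longest are shown, with the bases beyond the shortest in capitals.
19-base probe: ctgaacaccaaaagaaatc
22-base probe: ctgaacaccaaaagaaatcAGT
The 22-base probe gave 45.98, 47.68, 41.46 and 53.83 intensity units in EAM and 7.571, 3.538 and 2.666 in LAD, with all of its spots above background in EAM and 0 in LAD. The 19-base probe gave -4.262 to 0.229 in EAM and -1.366 to 0.03793 in LAD, with at most 12.5% of its spots above background on any array. The 21-base probe, at 10.58 to 13.65 in EAM and 0.8191 to 3.175 in LAD, separated the groups in the same direction. However, at most 14.29% of its spots were above background on any EAM array, and 0 were in LAD.

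Summarized over its probes, miR-29a-5p had a log2 signal of 4.49, 4.57, 4.54 and 4.66 in EAM and 4.35, 4.30 and 4.33 in LAD. The groups did not overlap, but the gap was small. The measured means were 4.57 ± 0.07 (SD, n = 4) and 4.32 ± 0.03 (SD, n = 3), and the difference of 0.24 did not pass (limma adjusted p = 0.0816, 95% interval -0.009 to 0.50). Since it was not detected in LAD, its LAD level is only a bound. Against the lowest signal of a detected miRNA on each LAD array, or its own signal where that was larger, miR-29a-5p was 1.15-fold higher in EAM. That reference, with a LAD mean of 4.36, is not a strict detection limit. Undetected miR-29c-5p had a LAD mean of 4.42, so 1.15-fold is not a guaranteed minimum for miR-29a-5p. By its 22-base probe alone the quantile-normalized difference was 1.17 (log2), against -0.07 by its 19-base probe. The sign of the miRNA-level difference depended on scaling: with arrays centred on their median it was -0.13.

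miR-29c-5p was detected on 1 of 4 EAM arrays, array 4, and 0 of 3 LAD arrays, and it was not tested. Its log2 signal was 4.56, 4.71, 4.68 and 4.82 in EAM and 4.46, 4.47 and 4.34 in LAD. The EAM values were all higher, by 0.27 on average. Its 21-base probe gave 7.674, 9.988, 8.583 and 14.28 intensity units in EAM and 4.115, 4.635 and 1.31 in LAD, and 26.67% of its spots were above background on EAM array 4. With median centring the sign of the miRNA-level difference turned, at -0.11.

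The guide-strand differences were toward EAM under every setting run. With arrays scaled to the 75th percentile of probes above background throughout, they were 1.97 for miR-29a-3p, 1.63 for miR-29b-3p and 1.86 for miR-29c-3p, and all 3 passed, against 18.2% of all tested miRNAs in that direction. In the authors' deposited table they were 1.90, 1.70 and 2.23, and all 3 passed in limma, against 35.2%. Without scaling they were 3.96, 3.57 and 3.74. Without scaling the 3 guide strands passed, against 70.7% of all tested miRNAs, and likewise with the 75th percentile of all probes, against 50.1%. miR-29a-5p also passed in both but was undetected in LAD. Its difference was 0.74 without scaling and 0.97 with that percentile, where the medians of all tested miRNAs were 1.17 and 0.95. The 75th percentile of all probes was only 6.55 to 8.51 intensity units on the EAM arrays and 3.07 to 4.65 on the LAD arrays. Such values are close to background, so this scale rests on dim probes. The 3 guide strands passed without background correction (against 32.4%), with local background and an offset (against 30%) and with median centring (against 39%). By Agilent's total gene signal only 1 guide strand, miR-29c-3p, passed, against 20.1%. There miR-29a-5p was listed at the floor of 0.1 units on all 3 LAD arrays and at 5.314 to 8.498 in EAM, so no difference is read from it. When limma's array weights gave each group a single weight, shared by all miRNAs, the 3 guide strands passed, against 15.6% of all tested miRNAs. These weights do not give a miRNA its own variance in each group, so they do not meet the unequal spread of the guide strands.

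**Figure D5:**
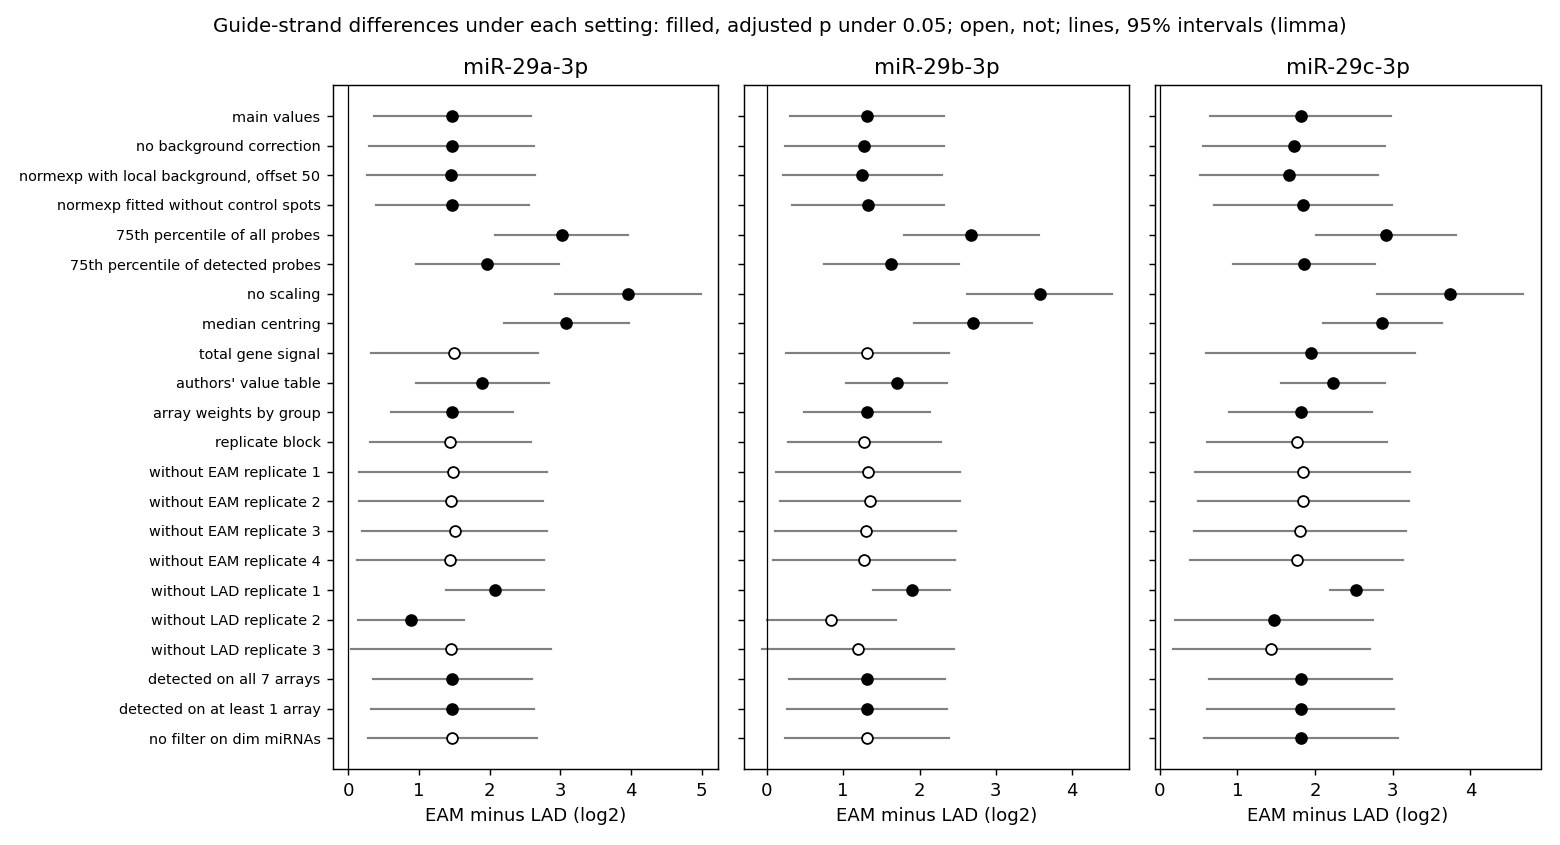
EAM minus LAD difference (log2) of the guide strands under each setting fitted with limma (y axis), with its 95% interval; filled symbols have an adjusted p under 0.05. All points lie right of 0, from 0.85 (miR-29b-3p without LAD replicate 2) to 3.96 (miR-29a-3p without scaling), and the settings that leave out 1 EAM array are open.

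The miRNAs closest in profile to the guide strands were found over the 7 arrays as those with the smallest root mean square difference (log2) from the mean guide-strand profile, each profile centred on its own mean. Among 248 other miRNAs detected on all arrays, they were miR-146a-5p (0.194), miR-150-5p (0.232), miR-155-5p (0.349), miR-101a-3p (0.432) and miR-139-5p (0.440), where the median was 1.07. For comparison, each guide strand was set against the mean of the others, with differences of 0.189 for miR-29b-3p, 0.242 for miR-29a-3p and 0.355 for miR-29c-3p. The values of miR-146a-5p, miR-150-5p and miR-155-5p fell within the range of the members. The measures are not alike, since these miRNAs were set against the mean of all 3 guide strands and picked as the closest of 248. miR-146a-5p, which targets adaptors of the NF-κB pathway, had 9.11, 9.20, 9.27 and 9.24 in EAM and 8.75, 6.40 and 6.84 in LAD. miR-150-5p, abundant in mature lymphocytes, had 12.42, 12.45, 12.50 and 12.52 in EAM and 12.19, 9.81 and 11.19 in LAD. Both had their highest LAD value on array 1 and their lowest on array 2, as miR-29a-3p and miR-29b-3p did.

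Of 10 other miRNAs with a described role in interferon gamma output or T helper 1 cells, 2 passed toward EAM (background 36.2%), 1 toward LAD (background 23.6%) and 7 did not pass, with a median difference of 0.38 against 0.31 for all tested miRNAs. miR-146a-5p was 3.68-fold higher in EAM (limma adjusted p = 0.0204) and miR-155-5p, a miRNA induced by activation that favours interferon gamma, 2.17-fold (adjusted p = 0.0264). miR-19b-3p, of the miR-17-92 cluster that favours T helper 1 responses, had 10.97 to 11.12 in EAM and 11.28, 12.16 and 11.88 in LAD. It was 1.65-fold higher in LAD (limma adjusted p = 0.0236). miR-24-3p and miR-27b-3p, which restrain helper T cell cytokines, had differences of 0.25 and 0.60 and overlapping groups. The members of this list that passed thus lay on both sides.

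The labelled cell type was checked against marker miRNAs. All 7 lymphocyte markers were detected on every array, with a summed level of 15.75 to 15.90 in EAM and 15.38 to 15.59 in LAD (log2). Of the 7, 4 were higher in EAM, against 36.2% of all tested miRNAs, and 1 in LAD, miR-181a-5p, against 23.6%. Of the 2 myeloid markers, miR-223-5p was detected on no array, and miR-223-3p was 3.11-fold higher in LAD, with LAD values of 9.19, 7.78 and 7.71 against 6.43 to 6.73 in EAM. The highest miR-223-3p value was on LAD array 1, where the guide strands were closest to EAM. All 5 epithelial markers were detected on every EAM array and on 0 or 1 LAD arrays, at a summed level of 7.46 to 7.81 in EAM and 6.83 to 7.16 in LAD, and 4 of them passed toward EAM, against 36.2% of all tested miRNAs. The epithelial markers entered the test through EAM detection alone. Undetected on most LAD arrays, they have no measured level there, so no difference in epithelial cells is read from this count. The 5 stromal and 4 heart muscle markers were detected on no array. Of the 3 red cell markers, miR-451a was detected on all arrays and did not pass, while the other two were detected on no array. Of the 2 endothelial markers, miR-126a-3p was detected on 3 EAM and 2 LAD arrays and miR-126a-5p on none. In such bulk samples, fewer cells with a miRNA and less of it per cell cannot be told apart, and the part of other cells in the miR-29 differences was not tested.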

How the data were processed

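RNA from 4 EAM and 3 LAD samples was Cy3-labelled and hybridised, per the labels' protocols, to one-colour Agilent arrays, which per the file headers lay on 1 slide and were read with Feature Extraction 10.7.3.1. Spot signal in the deposited files is in intensity units without scaling between arrays; other deposited columns mark, as 0 or 1, whether a spot or miRNA was detected. The values deposited by the authors are on a log2 scale, and RMA is named in the submitters' processing notes without a role. They lay within 0.1 of quantile-normalized signal without background correction in 97.9% of cases, but in only 11 of the 21 guide-strand values and 1 of the 9 on LAD arrays, where they were up to 1.08 lower.

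Mean spot signal was corrected with normexp (limma 3.58.1, R 4.3.3; fitted on all spots, no offset), quantile normalized, and summarized by the median over spots without outlier marks and by median polish over probes. Of all names, 423 were detected on all arrays of EAM, of LAD or of both, and these were fitted with limma (lmFit, eBayes; Benjamini-Hochberg, threshold 0.05). The 75th percentile alternatives had a floor of 1 unit. The number of arrays limits precision. The members, lists and tests were chosen with earlier results of these data known. Named miRNAs are the members, those closest in profile, a list of interferon gamma miRNAs and cell markers. Alternatives included other background correction, scaling, summaries, filters and variance models, the replicate number as a block and leaving out each array. The array design's own mm9 positions were not used, since they put the arms on chromosome 6 in the opposite order to the RefSeq hairpins.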

Additional observations from a re-analysis of the deposited data

How the results depend on the processing

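The guide strands were higher in EAM under every alternative. The limma adjusted p did not pass for miR-29a-3p and miR-29b-3p by total gene signal (differences 1.50 and 1.32, log2; adjusted p = 0.0516 and 0.0550) or with all 1881 names tested (1.47 and 1.31; 0.0722 and 0.0741). With unequal variances and no moderation 0 members and 0 of all tested miRNAs passed (difference 1.81 for miR-29c-3p, 1.47 for miR-29a-3p and 1.31 for miR-29b-3p). Leaving out each array in turn gave 1.44 to 2.53 for miR-29c-3p, 0.88 to 2.08 for miR-29a-3p, 0.85 to 1.90 for miR-29b-3p and 0.21 to 0.27 for miR-29a-5p, with 0 to 3 members and 17.7% to 81.3% of all tested miRNAs called (75 without EAM array 4, 344 without LAD array 2). The lowest values were without LAD array 2 for miR-29a-3p and miR-29b-3p and without LAD array 3 for miR-29c-3p. The difference between miR-29c-3p and miR-29a-3p ranged from -0.0073 to 0.59 and was -0.11 after scaling to the detected probes; that between miR-29c-3p and miR-29b-3p ranged from 0.25 to 0.63 and was 0.23.

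miR-29a-5p, near background, passed with the 75th percentile of all probes (0.97), without scaling (0.74), with all names tested (0.24) and without LAD array 2 (0.23, adjusted p = 0.0357), and turned to -0.13 with median centring. miR-29c-5p was 0.13 without background correction, 0.074 with local background, 0.45 with normexp fitted without control spots (chosen after seeing the data), 1.10 and 0.048 when scaled to the 75th percentile of all or of the detected probes, 0.77 without scaling, -0.11 with median centring, and 0.13 in the authors' table. By total gene signal the values 5.35 for miR-29a-5p and 1.12 for miR-29c-5p are set by a floor of 0.1 units, at which miR-29a-5p stands on all 3 LAD arrays and miR-29c-5p on 6 of 7 arrays. The cause of the other changes was not tested.

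Of all tested miRNAs, 59.8% passed in the background-corrected, quantile-normalized values, 39.2% (166) by total gene signal, 33.3% with array weights (66 higher in EAM and 75 in LAD), 53.8% (135) of the 251 detected on all arrays and 23.7% (445) of all names. The 253 calls split into 153 higher in EAM and 100 in LAD; the split was 77 and 117 by the 75th percentile of the probes above background on all arrays, 212 and 91 by that of all probes, and 299 and 2 without scaling.

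The deviations of same-numbered EAM and LAD arrays had correlations of 0.198, -0.161 and -0.192. Those of differently numbered arrays ran from -0.385 to 0.336. So few values cannot show whether the numbers pair samples. With the replicate number as a block, 0 members and 0 of all tested miRNAs passed in limma (180 at an unadjusted p under 0.05), with differences of 1.76 for miR-29c-3p (adjusted p = 0.0907) and of 1.44 for miR-29a-3p and 1.27 for miR-29b-3p (adjusted p = 0.0956 for both). No LAD array has the number 4, so EAM array 4 added nothing to these differences, which equal those without it.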

Other observations

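The array also carries 2 passenger strands of miR-29b that are not among the 5 members. miR-29b-1-5p, from the chromosome 6 pair, was detected on 4 of 4 EAM arrays and 0 of 3 LAD arrays, as miR-29a-5p from the neighbouring hairpin was. Its log2 signal was 4.60, 4.70, 4.67 and 4.79 in EAM and 4.39, 4.10 and 4.28 in LAD, without overlap (limma adjusted p = 0.0237). Of all tested miRNAs, 34% did not overlap with EAM higher and 36.2% passed toward EAM. miR-29b-1-5p entered the test through its detection in EAM alone, so its adjusted p and lack of overlap do not measure its LAD level. Against the lowest signal of a detected miRNA on each LAD array, or its own where larger, miR-29b-1-5p was 1.28-fold higher in EAM. As for miR-29a-5p, this is not a guaranteed minimum. Its 22-base probe gave 33.33 to 58.37 intensity units in EAM and 3.846 to 5.101 in LAD, while its 19-base probe gave -1.56 to 0.7612 in EAM and -2.956 to -0.2017 in LAD. miR-29b-2-5p, from the chromosome 1 pair, was detected on no array, with 4.03 to 4.08 in EAM and 4.11 to 4.17 in LAD. Detection cannot be compared between the gene pairs, because both chromosome 6 passenger strands have a 22-base probe, the only length with all spots above background on all EAM arrays, while the probes of miR-29c-5p have 20 and 21 bases and those of miR-29b-2-5p 17 and 18.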
